A study of Mus musculus with 30 samples.

Results

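The genes described here are 9 parts of the cyclin-dependent kinase (CDK) engine of the cell cycle, chosen by symbol with earlier results of these data known. They are the kinases Cdk1, Cdk2, Cdk4 and Cdk6, the inhibitors Cdkn1a (protein p21), Cdkn1b (p27) and Cdkn2c (p18), and the small CKS subunits Cks1b and Cks2. All 9 were found among the 46078 genes of the deposited count table. RNA came from C2C12 cells, an established line of mouse myoblasts, muscle precursors that divide in rich medium. The cells were in the growing state in 20% fetal bovine serum, carried no treatment or genetic change named in the labels, and were sorted by staining with a Hoechst DNA dye into a G1, an S and a G2/M fraction. Each fraction has 2 columns of RNA-seq counts, and the 24 ChIP-seq and input samples are not analysed here.

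A CDK is active only when a cyclin binds it, when its activation loop is phosphorylated and when inhibitory phosphates near its ATP site are removed. Cdk4 and Cdk6 pair with D-type cyclins in G1, Cdk2 with cyclins E and A around DNA synthesis, and Cdk1 with cyclins A and B up to mitosis. INK4 inhibitors such as p18 bind Cdk4 and Cdk6 alone, while CIP/KIP inhibitors such as p21 and p27 bind whole cyclin-CDK complexes. CKS proteins dock the kinase onto phosphorylated substrates, and Cks1, the product of Cks1b, is also needed by the SCF-Skp2 ubiquitin ligase to mark p27 for destruction. In myoblasts p21 and p18 are known for their part in leaving the cell cycle at differentiation.

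The upstream sequences of the genes that differed most between fractions are shown here, because kinases and cyclins of mitosis are known to share promoter elements. All 9 genes had a window in RefSeq (GRCm38.p6), 11 windows in all. The 250 bases before the RefSeq start were searched on both strands for the cell cycle homology region (CHR, TTTGAA), the CCAAT box (CCAAT) and 4 spellings of an E2F site (TTTGGCGC, TTTCGCGC, TTTCCCGC, TTTGCCGC). Capitals mark these matches, including those read on the other strand, in Cdk1 (chr10:69352913-69353162, minus strand), Cdk2 (chr10:128705052-128705301, minus strand) and Cks2 (chr13:51644982-51645231, plus strand), each written 5′ to 3′ in the direction of the gene.
Cdk1: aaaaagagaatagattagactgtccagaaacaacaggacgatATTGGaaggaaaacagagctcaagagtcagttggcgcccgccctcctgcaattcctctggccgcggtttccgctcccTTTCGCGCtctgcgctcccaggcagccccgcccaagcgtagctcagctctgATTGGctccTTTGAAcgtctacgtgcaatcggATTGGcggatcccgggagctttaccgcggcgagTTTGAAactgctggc
Cdk2: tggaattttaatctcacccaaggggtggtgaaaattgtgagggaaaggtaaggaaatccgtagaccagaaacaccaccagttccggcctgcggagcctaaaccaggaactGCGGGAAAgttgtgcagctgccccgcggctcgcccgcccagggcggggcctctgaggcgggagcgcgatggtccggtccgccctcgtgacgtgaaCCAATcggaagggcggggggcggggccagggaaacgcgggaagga
Cks2: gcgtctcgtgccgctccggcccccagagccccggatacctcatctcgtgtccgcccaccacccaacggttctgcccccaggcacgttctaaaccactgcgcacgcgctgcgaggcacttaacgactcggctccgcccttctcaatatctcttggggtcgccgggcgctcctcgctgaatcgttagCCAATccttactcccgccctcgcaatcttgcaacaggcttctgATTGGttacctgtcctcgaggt

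Cdk1 held 2 CHR matches, 3 CCAAT boxes and 1 E2F match. The window of Cdk2 held 1 CCAAT box and 1 E2F match with no CHR, and that of Cks2 held 2 CCAAT boxes alone. The windows of Cks1b held 2 CHR matches and 4 CCAAT boxes, those of Cdkn1b 2 CCAAT boxes, and those of Cdk4, Cdk6, Cdkn1a and Cdkn2c none of these letters. Among all 32851 windows of the same length, 16% held a CHR match, 33.8% a CCAAT box, 1.86% an E2F match and 5.55% a CHR match together with a CCAAT box. After these sequences were seen, the CHR was also searched together with the cell cycle dependent element (CDE) that can lie 4 bases before it (the letters GCGG, any 4 bases, then TTTGAA). The pair stood in 18 of the 32851 windows (0.0548%), and 2 of these 18 belonged to genes described here, Cdk1 and Cks1b. Because the letters were set after sequences were seen, this share describes 1 spelling and is no test of rarity. Other spellings of the pair were not searched. Their last 30 bases before the RefSeq start are set side by side, from chr10:69352913-69352942 and chr3:89418292-89418321, both on the minus strand, with both elements in capitals.
Cdk1: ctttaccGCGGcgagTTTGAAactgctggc
Cks1b: tgcggGCGGtgtgTTTGAAagcgaggccaa

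The annotation of the count table starts Cdk1 26 bases and Cks1b 92 bases further upstream than RefSeq, so the pair lies inside the first exon there. It starts Cdk6 2408 bases and Cdkn2c 433 and 1817 bases upstream of their RefSeq starts, and Cdkn1a 2790 bases upstream of its second RefSeq start, so these windows lie inside the counted gene. In RefSeq itself, the starts used for Cdk6 and for the second Cdkn2c and Cdkn1a windows lie 2889, 1384 and 2790 bases inside the gene. A match is a run of letters, not a shown binding site. The 2 genes that share this pair differed in their levels across the fractions, as given below.

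The 6 columns held 16109055 to 18103769 fragments assigned to genes. Titles number the columns of a fraction as replicates without saying that separate cultures were used. Within a fraction they lay close to counting noise, with chi-square over its degrees of freedom at 1.002, 1.03 and 1.153 in G1, S and G2/M (the last 1.04 without the gene model Gm17082), against 4.82 for S columns simulated with 5% variation. Both were therefore added up into 1 library, so no difference between fractions has a replicate check, no p-value is given for one, and every 95% interval covers counting error only. A lot is named in the titles of the S samples and of no others, so lot and fraction cannot be told apart in comparisons with S. Levels are in CPM, a gene's share of a library's fragments scaled between libraries. As a check of the sort, 4 of 4 G2/M genes (Ccnb1, Plk1, Cdc20, Ube2c) were highest in the G2/M library, and 4 of 4 G1/S genes (Ccne2, Cdc6, Mcm3, Pcna) were highest in the G1 library rather than in S, while Mki67, a marker of dividing cells, stood at 213, 483 and 579 CPM in G1, S and G2/M. Of 6 myoblast markers, Myf5, Cdh15 and Des stood above 10 CPM in every library, while Myod1 stood at 5.74 to 6.64 CPM and Pax7 had fragments in G2/M alone. The 6 markers of differentiated muscle all stayed under 10 CPM in every library. Of these, Myh1 and Mymk had 0 fragments, Myh3 had fragments in G2/M alone, and Ckm had 1 fragment, in S. Myog and Acta1 were lowest in S, as were Cdk2, Cdk4, Cdkn1a and Cks1b. Summed over all 6 genes, the markers of differentiated muscle gave 9.23, 0.167 and 11.2 CPM in G1, S and G2/M, with Acta1 at 6.74, 0.140 and 9.27 CPM. The part of differentiated cells in the values of Cdk2, Cdk4, Cdkn1a and Cks1b was not tested. The 14 markers of endothelium, leukocytes, epithelium, fat and nerve gave at most 5.27 CPM per list, with 8 of them, among them Ptprc, Epcam and Adipoq, at 0 in all libraries.

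Cdk1, the kinase of mitotic entry (ENSMUSG00000019942, GRCm38 chromosome 10 from 69336635 to 69352938), stood lowest in G1 and highest in G2/M. Its level was 132 and 135 CPM in the 2 G1 columns, 242 and 234 CPM in the S pair, and 354 and 360 CPM in the G2/M pair. The columns of the 3 fractions did not overlap, but the 2 columns of a fraction count as 1 library and are no replicate check. Cdk1 was 1.79-fold higher in S than in G1 (log2 ratio 0.84, interval 0.78 to 0.89) and 1.5-fold higher again in G2/M (log2 ratio 0.58, interval 0.55 to 0.62). From G1 to G2/M the difference came to 2.68-fold (log2 ratio 1.42, interval 1.37 to 1.47). A level is a share of a library's fragments, so total RNA per cell was not measured, and a fraction with more cells of one kind cannot be told apart from more RNA per cell.

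Cdk2, the kinase of S-phase entry and progress (ENSMUSG00000025358, chromosome 10 from 128697939 to 128705051), ran the other way. It stood at 90.1 and 85.1 CPM in the G1 columns, 35.6 and 36.8 CPM in S, then 38.7 and 39.3 CPM in G2/M. G1 was thus the high fraction, and S and G2/M lay close together. Cdk2 was 2.42-fold lower in S than in G1 (log2 ratio -1.28, interval -1.37 to -1.18) and 2.25-fold lower in G2/M than in G1 (log2 ratio -1.17, interval -1.26 to -1.08). Between G2/M and S its log2 ratio was 0.11, with an interval of -0.0023 to 0.22 that includes 0.

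Cdk4 and Cdk6, the D-cyclin kinases that begin the phosphorylation of the retinoblastoma protein, differed far less. Cdk4 (chromosome 10 from 127063534 to 127067920) stood at 306 and 317 CPM in G1, 242 and 239 CPM in S, then 330 and 324 CPM in G2/M. The S columns were the low ones, 1.30-fold below G1 (log2 ratio -0.38, interval -0.42 to -0.33), and G2/M was 1.36-fold above S (log2 ratio 0.44). Of its 3249 exon bases, 604 (18.6%) overlap exons of Tspan31 on the opposite strand, a gene with 1307, 1181 and 1169 fragments in G1, S and G2/M, and the part of this overlap in the Cdk4 values was not tested. Cdk6 (chromosome 5 from 3341485 to 3531008) stood at 172 and 159 CPM in G1, 181 and 179 CPM in S, then 208 and 209 CPM in G2/M. Its largest ratio was 1.26-fold, in G2/M against G1 (log2 ratio 0.33, interval 0.28 to 0.38). Its log2 ratio of 0.12 between S and G1 turned to -0.18 when ratios were centred on genes of like exon length. Cdk6 has 13989 exon bases, the most of the 9 genes.

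**Figure D1:**
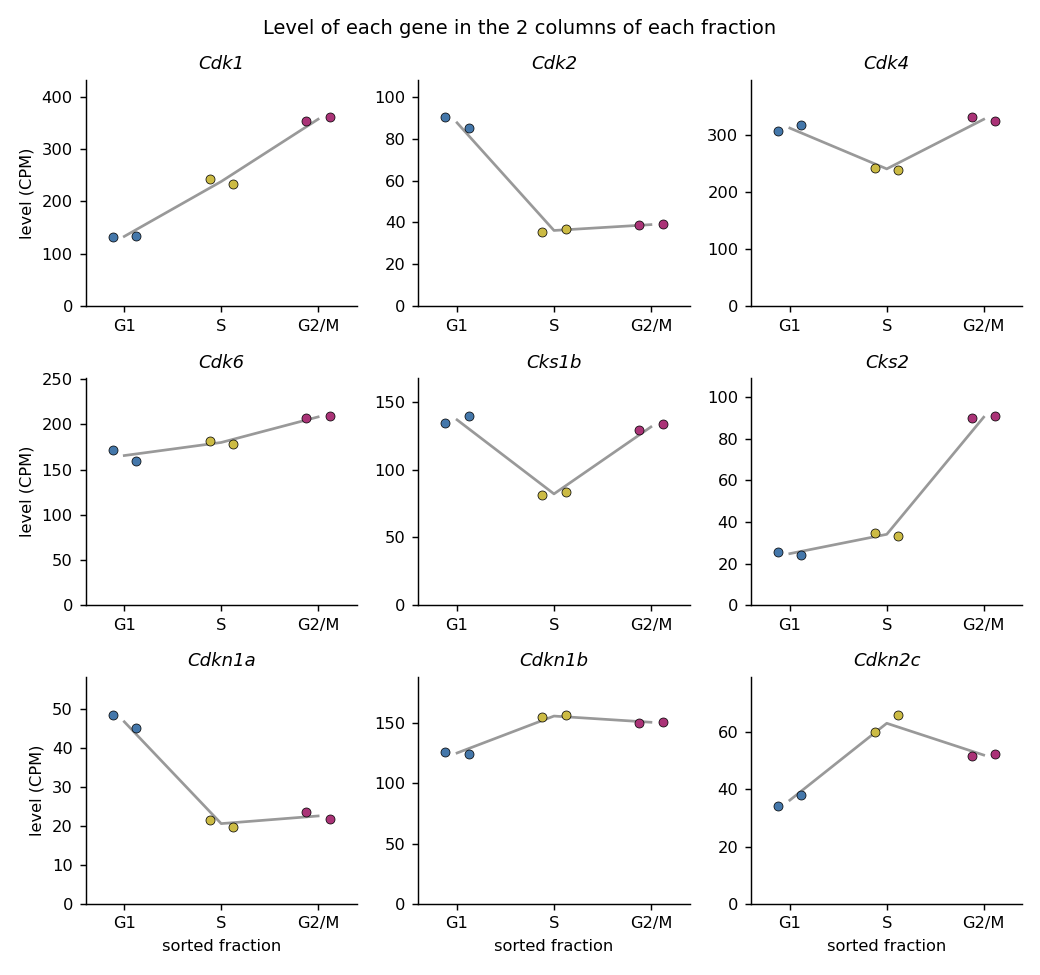
Level of each of the 9 genes in CPM (vertical axis, from 0) in the G1, S and G2/M fractions; points are the 2 columns of a fraction and the line joins the summed libraries. Cdk1 and Cks2 are highest in G2/M, at 357 and 90.5 CPM, Cdk2 and Cdkn1a are highest in G1, at 87.6 and 46.8 CPM, and the paired columns lie close together.

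The CKS subunits did not share a pattern. Cks2 (ENSMUSG00000062248, chromosome 13 from 51645232 to 51650660) stood at 25.4 and 24.1 CPM in G1, 34.8 and 33.4 CPM in S, then 90.0 and 91.0 CPM in G2/M. The G2/M columns stood far above the rest. Its G2/M level was 2.66 times that of S (log2 ratio 1.41, interval 1.31 to 1.51) and 3.65 times that of G1 (log2 ratio 1.87, interval 1.76 to 1.98), the widest range of the 9 genes. Between S and G1 it differed 1.38-fold (log2 ratio 0.46, interval 0.33 to 0.59).

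Cks1b (ENSMUSG00000028044, chromosome 3 from 89415472 to 89418383) stood at 134.2 and 139.5 CPM in G1, 81.1 and 83.2 CPM in S, then 129.7 and 133.6 CPM in G2/M. S was low, and G2/M and G1 lay close together. It was 1.67-fold lower in S than in G1 (log2 ratio -0.74, interval -0.80 to -0.67) and 1.6-fold lower in S than in G2/M (log2 ratio of G2/M against S 0.68, interval 0.61 to 0.75). Between G2/M and G1 its log2 ratio was -0.06, with an interval of -0.12 to 0.0031, and length centring turned it to 0.08. Its testis retrocopy Cks1brt had 0 fragments in all libraries.

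Of the inhibitors, Cdkn1a, a well known target of p53 (ENSMUSG00000023067, chromosome 17 from 29090979 to 29100722), was, like Cdk2, highest in G1. It stood at 48.5 and 45.0 CPM in G1, 21.5 and 19.7 CPM in S, then 23.5 and 21.7 CPM in G2/M. G1 was high, and G2/M and S lay close together. Cdkn1a was 2.27-fold lower in S than in G1 (log2 ratio -1.18, interval -1.31 to -1.05) and 2.07-fold lower in G2/M than in G1 (log2 ratio -1.05, interval -1.18 to -0.93). With length centring these became -0.999 and -0.92, short of 2-fold. Between G2/M and S the log2 ratio of 0.13 had an interval of -0.01 to 0.28.

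Cdkn1b and Cdkn2c were both lowest in G1 and highest in S. Cdkn1b, the p27 gene (chromosome 6 from 134920401 to 134925513), stood at 126 and 124 CPM in G1, 155 and 157 CPM in S, then 150.1 and 151 CPM in G2/M. It differed 1.24-fold between S and G1 (log2 ratio 0.32, interval 0.26 to 0.37), and its interval between G2/M and S, -0.10 to 0.0056, included 0. Cdkn2c, the p18 gene (chromosome 4 from 109660876 to 109667189), stood at 34.2 and 38.2 CPM in G1, 60.2 and 66.04 CPM in S, then 51.8 and 52.3 CPM in G2/M. S was the high fraction, G2/M the middle one and G1 the low one. Cdkn2c was 1.74-fold higher in S than in G1 (log2 ratio 0.80, interval 0.70 to 0.90) and 1.21-fold lower in G2/M than in S (log2 ratio -0.28, interval -0.37 to -0.19). Its G1 columns differed by 11.6%, the widest gap among the 27 pairs of columns of these genes, whose median gap was 2.98%.

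By a rule of at least 2-fold with 10 CPM in 1 of the 2 libraries, 0 of the 9 genes were called higher and 2 lower (Cdk2, Cdkn1a) in S against G1, where 8.63% of 8773 measured genes were called higher and 8.61% lower. Between G2/M and S, 1 was called higher (Cks2) and 0 lower, beside 7.13% and 6.60% of 8752 genes. Between G2/M and G1, 2 were called higher (Cdk1, Cks2) and 2 lower (Cdk2, Cdkn1a), beside 10% (888) and 9.80% of 8850 genes. The 3 comparisons share libraries, so the high G1 levels of Cdk2 and Cdkn1a count in both comparisons with G1. The median log2 ratio of the 9 genes was 0.12, 0.21 and 0.27 in these comparisons in turn, against -0.01, 0.01 and -0.00319 over all measured genes.

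How often a 2-fold ratio occurs depended on level. At a mean of 10 to 50 CPM over the 2 libraries compared, where Cdkn1a lies in both comparisons with G1, 23.4% of genes differed at least 2-fold in either direction between S and G1 and 26.7% between G2/M and G1. At 50 to 200 CPM, the shares were 6.22% between S and G1, where Cdk2 lies in this band, 7.29% between G2/M and G1, where Cdk2 and Cks2 do, and 2.98% between G2/M and S, where Cks2 does. Counting intervals do not capture what happens at low level, where Cdk20 had 186 fragments in the G1 library, 203 in that of S and 0 in that of G2/M, and Pax7 0, 0 and 119. At 200 CPM and more, where Cdk1 lies between G2/M and G1, 4.09% of genes differed at least 2-fold in either direction. Of the genes in this band, 2.76% were 2-fold or more above their G1 level.

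**Figure D2:**
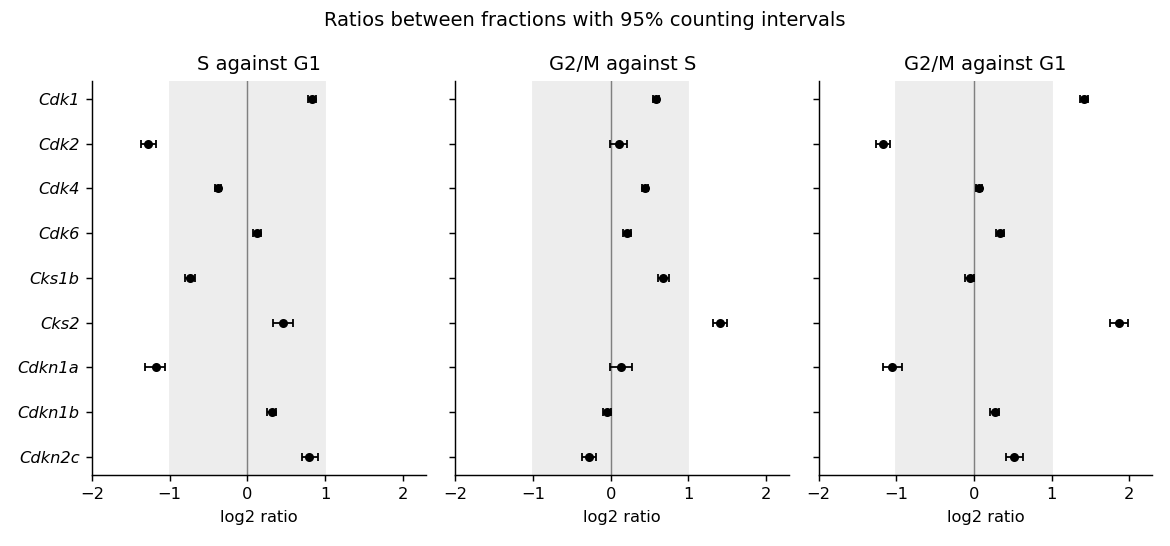
Log2 ratio of each gene (horizontal axis) in the 3 comparisons, with 95% counting intervals as bars and the range below 2-fold shaded. Cdk2 and Cdkn1a lie left of the shading in both comparisons with G1, at log2 ratios of -1.28 to -1.05, and Cks2 lies right of it in both comparisons of G2/M.

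Levels were also set per kilobase of exon, the scale on which genes can be compared, using the merged exon length in the deposited table and not the length of the transcripts in use. In G1 the order began with Cks1b at 122 and Cdk4 at 96.0 CPM per kilobase, followed by Cdk1 at 38.7, Cdk2 at 36.0 and Cks2 at 35.8 CPM per kilobase. Cdk2 and Cks2 did not differ beyond their counting intervals there. Below them came Cdkn1b at 27.5, Cdkn1a at 21.03, Cdkn2c at 13.5 and Cdk6 at 11.8 CPM per kilobase.

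In S, Cdk4 at 74.0, Cks1b at 73.0 and Cdk1 at 69.1 CPM per kilobase led, and neighbours among these 3 had overlapping intervals. Cks2 followed at 49.2, Cdkn1b at 34.2, Cdkn2c at 23.5, Cdk2 at 14.9, Cdk6 at 12.9 and Cdkn1a at 9.26 CPM per kilobase. In G2/M, Cks2 was at the head with 131 CPM per kilobase, ahead of Cks1b at 117. Cdk1 at 104 and Cdk4 at 101 CPM per kilobase came next with overlapping intervals. Cdkn1b at 33.1 and Cdkn2c at 19.4 CPM per kilobase stood above Cdk2 at 16.03 and Cdk6 at 14.9, whose intervals touched, and Cdkn1a was again last at 10.1 CPM per kilobase.

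Summed per family, the 4 kinases came to 183, 171 and 235 CPM per kilobase in the G1, S and G2/M libraries, and the 2 CKS genes to 157, 122 and 248. The 3 inhibitors of the 9 genes summed to 62.0, 67.0 and 62.6 CPM per kilobase, a narrow range within which the makeup differed. Cdkn1a made up 33.9%, 13.8% and 16.2% of that sum in the same order, whereas Cdkn2c made up 21.8%, 35.1% and 30.9%. Cdkn2d, an INK4 inhibitor outside the 9 genes, was left out of this sum and stood at 23.8, 32.3 and 50.5 CPM per kilobase. The narrow range thus holds for these 3 inhibitors alone. Among the kinases Cdk1 made up 21.2%, 40.5% and 44.1%, and Cdk2 19.7%, 8.71% and 6.81%.

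**Figure D3:**
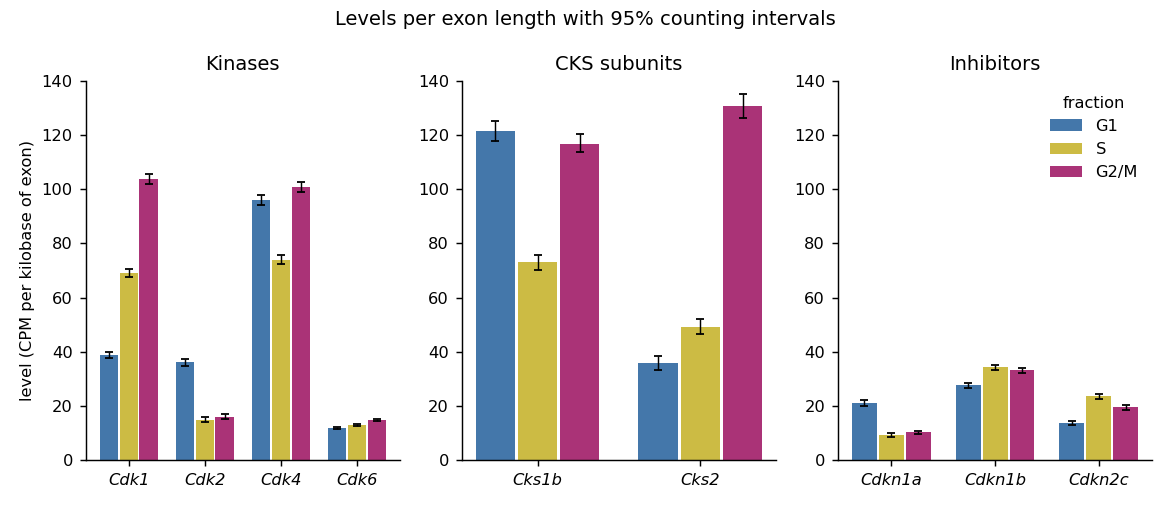
Level per kilobase of merged exon (CPM per kilobase, from 0) of the kinases, CKS subunits and inhibitors in the 3 fractions, with 95% counting intervals. Cks2 goes from 35.8 in G1 to 131 in G2/M while Cks1b stands at 122 and 117, and the tallest inhibitor bar is Cdkn1b in S at 34.2.

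Ratios of a pair of genes within a library do not depend on how libraries were scaled. Cdk1 RNA per kilobase was 1.07 times that of Cdk2 in G1 (interval 1.02 to 1.13), 4.65 times in S (4.38 to 4.93) and 6.47 times in G2/M (6.12 to 6.84). Per kilobase of merged exon the 2 kinases were thus near parity in the G1 library alone, where they stood at 133 and 87.6 CPM. Cks2 RNA was 0.294 times that of Cks1b in G1 (interval 0.273 to 0.318), 0.675 times in S and 1.12 times in G2/M (interval 1.07 to 1.17). Per kilobase of merged exon, Cks1b RNA stood above Cks2 RNA in G1 and S, and below it in G2/M. In CPM, with no division by length, Cks1b was the higher in G2/M too, at 131.6 against 90.5 CPM. The order in G2/M thus rests on the exon lengths used (1126 bases for Cks1b, 692 for Cks2), which the counting intervals do not cover.

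Cdkn1b RNA was 1.31, 3.70 and 3.26 times that of Cdkn1a in G1, S and G2/M. The lead of p27 RNA over p21 RNA was thus smallest in the G1 library. Cdkn2c RNA, at 0.642 times Cdkn1a in G1, exceeded it 2.54 times in S and 1.91 times in G2/M. Cdk4 kept well above Cdk6 in every library, at 8.11, 5.75 and 6.76 times its level, although the G1 columns gave 7.67 and 8.59. Length centring was not applied to these ratios. It took the log2 ratio in S against G1 from -0.38 to -0.26 for Cdk4 and from 0.12 to -0.18 for Cdk6. Set against their partners, Ccnb1 RNA was 0.455, 0.832 and 0.893 times that of Cdk1, and Ccna2 RNA was 1.03, 5.999 and 6.80 times that of Cdk2. Ccne2, the partner of Cdk2 at S entry, was at 0.680, 0.320 and 0.372 times its RNA, and Ccnd1 RNA 1.71, 2.44 and 1.88 times that of Cdk4.

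**Figure D4:**
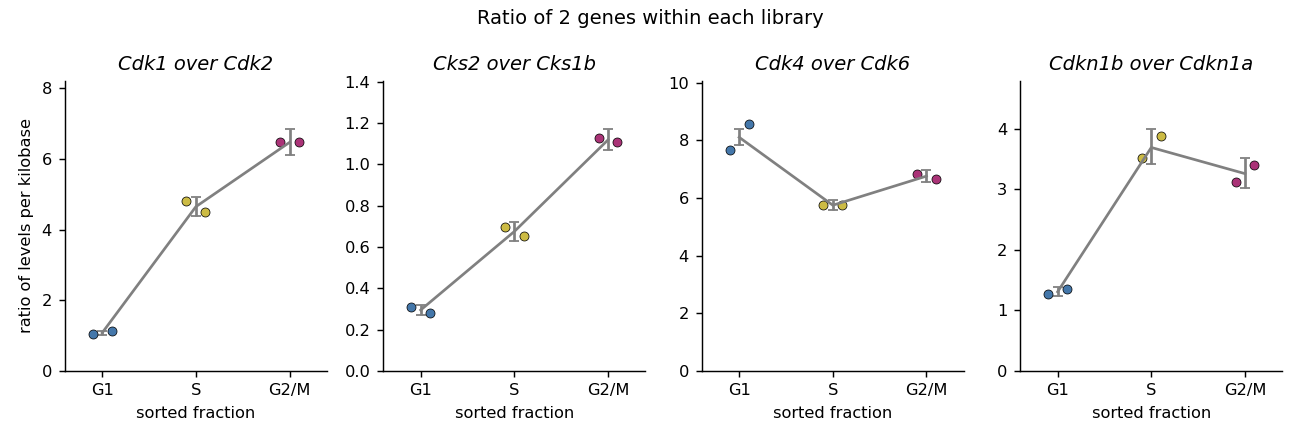
Ratio of levels per kilobase for 4 pairs of genes within each library (vertical axis, from 0); points are the 2 columns of a fraction, the line joins the summed libraries and bars are 95% counting intervals. Cdk1 over Cdk2 goes from 1.07 in G1 to 6.47 in G2/M, and Cks2 over Cks1b from 0.294 to 1.12.

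Of the 9 cyclins listed as partners of these kinases, 8 were measured and Ccna1, a germ-line cyclin, had 0 fragments. The mitotic cyclins Ccnb1 and Ccnb2 and the S and G2 cyclin Ccna2 were all higher in G2/M than in G1, at 390, 47.5 and 445 CPM against 74.3, 10.5 and 152 CPM, or 5.25-, 4.51- and 2.93-fold. Ccnb2, like Cks2, also stood over 2-fold above its S level in G2/M, at 2.55-fold. The E cyclins were, like Cdk2, highest in G1: Ccne1 stood at 59.9, 19.4 and 20.9 CPM and Ccne2 at 85.6, 16.6 and 20.8 CPM in G1, S and G2/M, 3.09- and 5.15-fold lower in S than in G1. The D cyclins Ccnd1, Ccnd2 and Ccnd3 stayed under 2-fold in all 3 comparisons, Ccnd1 at 631 to 726 CPM and Ccnd2 at 52.7, 35.2 and 54.3 CPM in G1, S and G2/M. The list counted 2 called higher and 2 lower of 8 in S against G1, 1 and 0 in G2/M against S, and 3 and 2 in G2/M against G1, with medians of 0.35, 0.31 and 0.36. Over all measured genes, the shares called higher and lower were 8.63% and 8.61%, 7.13% and 6.60%, and 10% and 9.80%. The medians over all measured genes were -0.01, 0.01 and -0.003.

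Of the genes that set the phosphates on CDKs, some passed 2-fold and others, Cdk7, Mnat1 and Cdc25a among them, did not in any comparison. Cdc25b and Cdc25c, phosphatases that remove the inhibitory phosphates, were higher in G2/M than in G1, Cdc25b at 171 against 39.8 CPM (4.30-fold) and Cdc25c at 51.9 against 21.8 CPM (2.38-fold), while Cdc25a stood at 77.8, 49.4 and 83.9 CPM in G1, S and G2/M. Wee1, a kinase that places them, was 2.77-fold higher in S than in G1, at 48.9 against 17.7 CPM. It stood at 45.6 CPM in G2/M, 2.58-fold above G1. Its relative Pkmyt1 was 6.35-fold lower in S than in G1 at low level, 2.20 against 14.0 CPM. Of the CDK-activating kinase, Ccnh exceeded its S level 2.296-fold in G2/M, at 56.6 against 24.7 CPM, Mnat1 stood at 48.4, 75.1 and 96.4 CPM, and the kinase subunit Cdk7 at 86.8, 78.3 and 63.9 CPM in G1, S and G2/M. Cdkn3, a phosphatase that acts on CDKs, stayed under 10 CPM in all libraries. In G2/M against G1, 4 of 8 measured genes of this list were called higher and 1 lower, with a median of 1.12. In S against G1 these counts were 2 and 1 of 8, and in G2/M against S 1 and 0 of 7, with medians of 0.45 and 0.37. Of all measured genes, the shares called higher and lower were 10% and 9.80%, 8.63% and 8.61%, and 7.13% and 6.60% in the same order. Their medians were -0.003, -0.01 and 0.01.

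Among the genes for turnover of p21 and p27, Dtl, the substrate receptor through which CRL4 ligases clear p21 in S phase, stood at 135, 23.0 and 44.5 CPM in G1, S and G2/M. Skp2, which works with Cks1 on p27, stood at 95.9, 72.9 and 45.5 CPM, 2.11-fold lower in G2/M than in G1. Rnf123, of the KPC ligase that acts on p27, had 26.7 CPM in S against 4.96 and 5.35 CPM in G1 and G2/M. The core subunits Skp1a, Cul1, Rbx1, Ddb1, Cul4a and Cul4b, and Ubac1 of the KPC ligase, stayed under 2-fold in all comparisons. Among these, Cul4a stood at 259, 353 and 288 CPM, Cul1 at 182, 137 and 191 CPM, Skp1a at 280.4, 228 and 228 CPM, and Ubac1 at 28.7, 34.3 and 37.9 CPM in G1, S and G2/M. Counts of called genes were 1 higher and 1 lower of 10 in S against G1, 0 and 1 of 10 in G2/M against S, and 0 and 2 of 9 in G2/M against G1, with medians of -0.18, 0.07 and -0.03. All measured genes had shares of 8.63% and 8.61%, 7.13% and 6.60%, and 10% and 9.80% in the same order, with medians of -0.01, 0.01 and -0.003.

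Of the remaining inhibitors, Cdkn2d (p19 of the INK4 family) was measured, at 30.3, 41.1 and 64.1 CPM in G1, S and G2/M and 2.12-fold higher in G2/M than in G1. Cdkn1c, Cdkn2a and Cdkn2b had 0 fragments in all libraries, and the limit of 3 fragments taken for a count of 0 stands at 0.0936, 0.0837 and 0.0827 CPM in the G1, S and G2/M libraries. Thus 4 of the 7 INK4 and CIP/KIP genes examined gave reads. In the list of 15 other CDKs, 13 were measured, and 3 were called higher and 1 lower in S against G1, 1 and 1 in G2/M against S, and 3 and 0 in G2/M against G1, with medians of 0.19, 0.06 and 0.41. Beside these stand shares of 8.63% and 8.61%, 7.13% and 6.60%, and 10% and 9.80% of all measured genes, with medians of -0.01, 0.01 and -0.003. Cdk12, which phosphorylates the tail of RNA polymerase II, stood at 30.5, 88.3 and 107 CPM, Cdk14 at 29.9, 73.6 and 69.0 CPM, and Cdk8 of the Mediator kinase module at 48.7, 66.7 and 103 CPM. Cdk5 stood at 12.3, 30.8 and 10.4 CPM, Cdk10 at 17.3, 8.48 and 23.0 CPM, Cdk16 at 87.0, 68.9 and 43.8 CPM, and Cdk9, the kinase of transcription elongation, at 42.3, 41.5 and 75.9 CPM in G1, S and G2/M. Cdk15 had 0 fragments, and Cdk20 stayed under 10 CPM throughout.

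**Figure D5:**
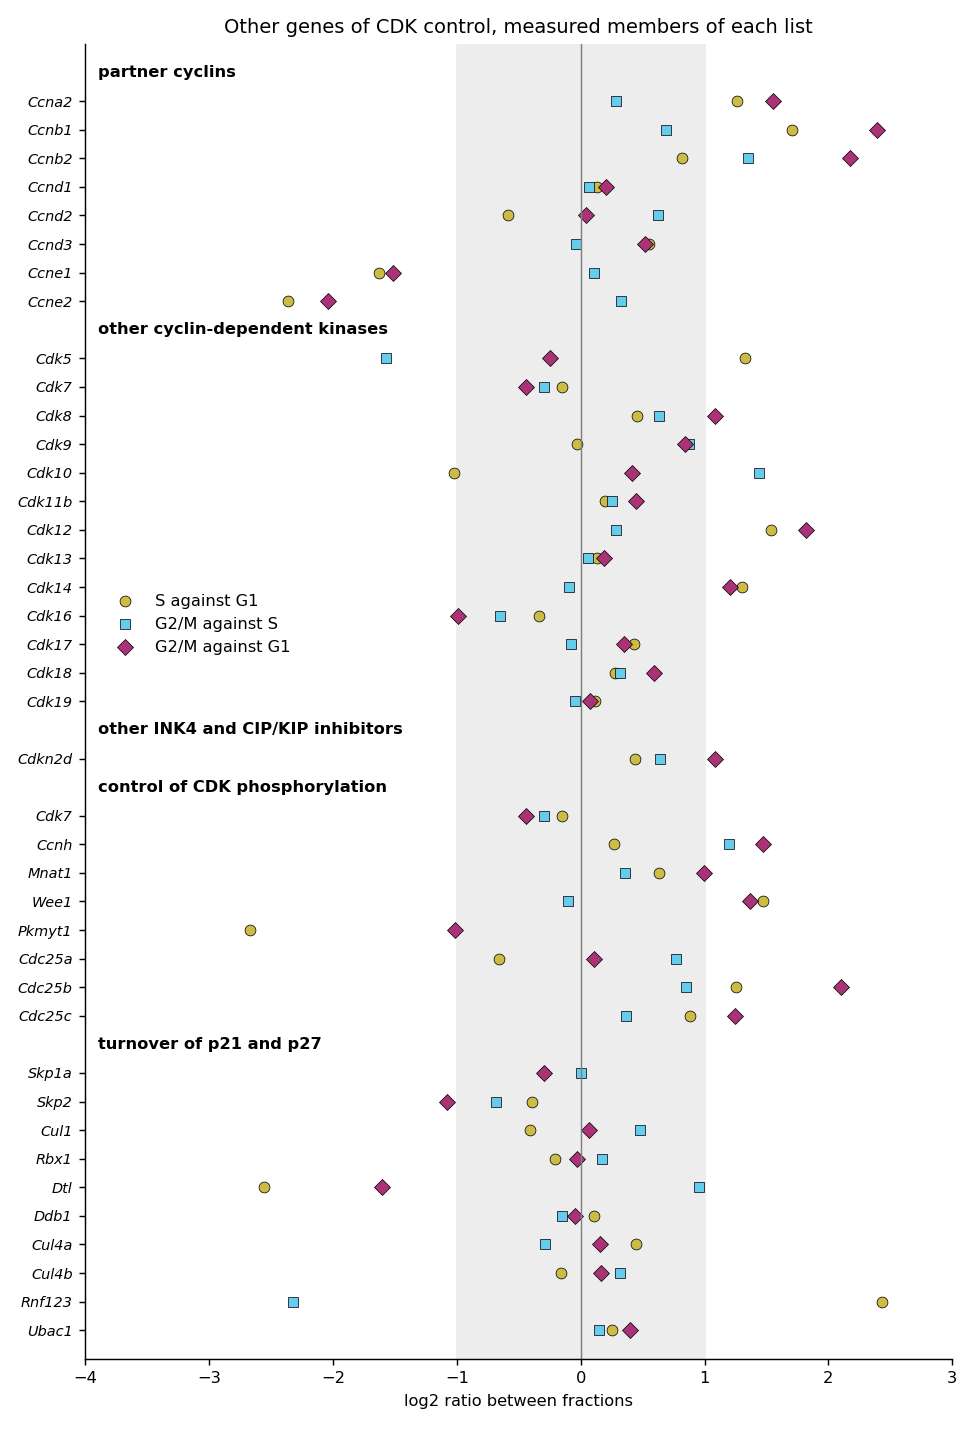
Log2 ratios (horizontal axis) of the measured genes of 5 lists of CDK control in S against G1 (circles), G2/M against S (squares) and G2/M against G1 (diamonds); shading marks less than 2-fold. The mitotic cyclins and Cdc25b lie to the right in G2/M against G1, up to 2.39 for Ccnb1, and the E cyclins, Dtl and Pkmyt1 to the left in S against G1, down to -2.67 for Pkmyt1.

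For each gene the nearest patterns were sought among 4176 named genes at a mean of at least 50 CPM, by the Euclidean distance of their 3 centred log2 levels. With only 3 points a pattern is coarse, and the number of genes within a distance of 0.25 ranged from 1 for Cks2 to 951 for Cdkn1b. The gene within that distance of Cks2 was Plk1, a mitotic kinase, at a distance of 0.23, and Hmmr and Arhgap19 came next at 0.31 and 0.32. Nearest to Cdk1, with 38 genes within that distance, were Dpy19l4, Vrk1 and Mdm4. Cdk2 and Cdkn1a had neighbours in common, Atad5 and Mcfd2, the other neighbours being St3gal5 for Cdk2 and Rps29 for Cdkn1a. For Cks1b the nearest were Rps21, Tor1aip2 and Hsbp1 among 202, and for Cdkn2c Dnajb2, Ubr3 and Lamb1 among 286. Cdk4 (Tcf12, Rwdd1, Rbms2 among 666), Cdk6 (Nsfl1c, Nfic, Lmnb1 among 896) and Cdkn1b (Ice1, Larp4, Anapc1) had patterns shared by many genes.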

How the data were processed

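RNA-seq counts of 6 columns were used, 2 per sorted fraction. The deposited values are raw counts of read pairs (fragments), which featureCounts 1.5.0-p3 assigned to the exons of Ensembl GRCm38 genes, per the file headers. No setting for strand or overlaps is named in the command, so antisense overlaps such as that of Cdk4 and Tspan31 cannot be told apart. Reads had 101 cycles, per the labels' protocols, and HISAT2 2.1.0 and SAMtools 1.6 are named with no role, per the submitters' processing notes. Column names were matched to the sample descriptions, and 45143 of 46078 genes (98.0%) to symbols.

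Columns of a fraction were compared by chi-square over genes holding 10 or more fragments in both together and, with chi-square over its degrees of freedom under 1.2, summed to 1 library. Libraries were scaled with TMM factors (edgeR 4.0.16, R 4.3.3) over 13113 genes with at least 10 fragments. Counts under 3 fragments were set to 3 in ratios, ratios have exact binomial intervals (95%) and levels exact Poisson intervals. PCR copies are not independent molecules, so these intervals cover counting error only. Scripts were tested on simulated data. The genes, lists, rule for named genes and alternatives were chosen with earlier results of these data known. The rule names all 9 genes, from each of 5 lists the 4 largest ratios per comparison and every called gene, and the 3 nearest patterns per gene. Genes described beyond that (such as Cdk13 in the plot of lists, Cul4b or Skp1a) complete a list. DESeq2 1.42.0 supplied an alternative scaling.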

Additional observations from a re-analysis of the deposited data

How the results depend on the processing

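No paired analysis was possible because the 2 columns of a fraction were summed to 1 library and no test was made. Scaling by DESeq2 size factors, by library size alone or by TMM over all genes kept all 27 log2 ratios of the 9 genes inside their counting intervals, with shifts of at most 0.03. With 1 column of each fraction alone, 25 of 27 stayed inside in each case, with shifts of at most 0.07. Centring on the 500 genes of nearest exon length moved 20 of 27 outside, by -0.30 to 0.34, and changed the sign of 2 uncalled ratios (Cdk6 in S against G1, Cks1b in G2/M against G1). It left 1 of the 9 genes 2-fold lower in S against G1 and 1 in G2/M against G1, where 2 stood before. With this centring, 7.85% and 9.49% of all measured genes were called lower in these 2 comparisons. A minimum mean of 50 CPM, which leaves out Cdkn1a, also gave 1 in each, beside 2.15% and 2.70% of all genes under that minimum.

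In the lists of CDK control, that minimum gave 5 genes higher and 2 lower in S against G1 (8 and 5 without it), 0 and 0 in G2/M against S (3 and 2), and 5 and 3 in G2/M against G1 (11 and 5). The share of all genes called fell with it as well, to 3.05% higher and 2.15% lower, 0.973% and 1.38%, and 3.79% and 2.70% in the same order. At 1.5-fold, 2 of the 9 genes were higher and 3 lower in S against G1 (0 and 2 at 2-fold), beside 18.5% and 18.3% of all genes, and 2 were higher in G2/M against S (1 at 2-fold), and G2/M against S had 11 listed genes higher and 4 lower, where 16.1% and 15.4% of all genes passed 1.5-fold. With 1 library per fraction, depth sets the counting intervals and nothing here measures the variation between cultures.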
